A study of Saccharomyces cerevisiae with 12 samples.

Results

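The 10 genes described here encode proteins of the yeast cell wall: CCW12, PIR1, PIR3, HSP150, CIS3, CWP1, CWP2, SED1, CRH1 and PST1. They were taken by systematic name from the 6650 genes of the deposited tables, and all 10 were found. The rule itself holds no measured value, but the set was proposed with earlier results of these data known. The quantity measured was the occupancy of RNA polymerase II (Pol II) over each gene, from chromatin immunoprecipitation and sequencing with 4H8, which binds the polymerase by its C-terminal repeats. The strains compared were Pcf11-13, Pcf11-DNL and WT of Saccharomyces cerevisiae, with 2 Pol II libraries and 2 input libraries each, 12 in all. Input is DNA of the same chromatin that was not precipitated. Every strain was w303, of mating type alpha, grown in glucose, with the alleles ura3-1, trp1-delta, ade2-1, his3-11,15 and pcf11-delta::TRP1, so no strain had a chromosomal PCF11. Each strain also carried a leu2 allele, whose number in the label of Pcf11-DNL lacks a digit that the labels of Pcf11-13 and WT have. The only PCF11 gene was on the plasmid pRS325-LEU2. In Pcf11-13 it was pcf11-13, with no tag in the label. In Pcf11-DNL it was V5-pcf11-deltaN-linkMYC, and in WT it was V5-PCF11-MYC. The WT cells therefore also lived on a tagged plasmid copy, and in Pcf11-13 the allele cannot be told apart from the tags that its label does not list. Pcf11-DNL is the name in the sample titles, and Pcf11-dQN stands in its place in the series text.

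The wall of budding yeast is a layer of glucan and chitin covered by mannoproteins. Most of these are held through a remnant of a glycosylphosphatidylinositol (GPI) anchor, as are the products of CCW12, SED1, CWP1, CWP2, CRH1 and PST1, and the Pir proteins (products of PIR1, PIR3, HSP150 and CIS3) are bound to glucan directly. Damage to the wall is sensed at the plasma membrane. It is relayed through protein kinase C to the MAP kinase Slt2 and the transcription factor Rlm1. Pcf11 is a subunit of the complex that cleaves the 3′ ends of pre-mRNA, and it also takes part in the release of Pol II from the DNA. The comparisons ask whether Pol II over these genes differed between strains with different forms of Pcf11.

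The deposited values are mean read coverage per gene, which is not adjusted for how deeply a library was sequenced, so read numbers are unknown. The mean over genes of deposited Pol II coverage came to 185.9 and 300.7 in Pcf11-13, 158.2 and 206.8 in Pcf11-DNL, and 140.1 and 161.8 in WT (replicates 1 and 2). Values below were divided by a scaling factor per library and are called scaled coverage. Pcf11-DNL replicate 2 and WT replicate 1 stood apart: the SD of log2 coverage over genes was 0.919 and 0.926 in them, against 1.08 to 1.19 in the other 4 Pol II libraries, so high genes lay lower and low genes higher. The comparisons of the 10 genes are given with and without them. Over PCF11 itself scaled Pol II coverage was 759 and 847 in Pcf11-13, 158 and 158 in Pcf11-DNL, and 154 and 168 in WT, which does not show the allele. Input over PCF11 was also higher in Pcf11-13, at 332 and 316, against 217 and 219 in Pcf11-DNL and 215 and 225 in WT. The mating type was checked with its markers. Pol II coverage summed over 4 alpha-specific genes was 3307 to 3685 in Pcf11-13, 2589.8 to 3322 in Pcf11-DNL and 2669 to 4458 in WT, and over 6 a-specific genes it was 190.7 to 194.7, 223 to 322 and 170.5 to 312 in the same order, with no marker at 0. The sums of both marker sets in Pcf11-DNL replicate 2 and WT replicate 1 were closer together than in the other libraries.

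Pol II occupancy of the 6 genes for GPI proteins ranged from that of CCW12, the highest of any gene in the mean of each strain, down to that of PST1, 1.902-fold above the median gene in WT. CCW12 (YLR110C, chromosome XII, 369697 to 370098 in sacCer3) encodes a major wall mannoprotein, without which the wall is weak. Its scaled coverage was 3307 and 2758 in Pcf11-13, 2689 and 2094 in Pcf11-DNL, and 2284 and 3714 in WT, so that 3 of the 4 mutant libraries lay between the 2 WT libraries. In the ratio of Pol II to input, centred on the median gene, CCW12 was 27.3-fold above the median gene in Pcf11-13 (log2 4.77 ± 0.16, SD, n = 2), 21.6-fold in Pcf11-DNL (4.43 ± 0.25) and 25.6-fold in WT (4.68 ± 0.50). By these means it ranked 1 of 6641 genes in every strain. SED1 (YDR077W, chromosome IV, 600793 to 601809) encodes an abundant structural wall protein known for its rise in stationary phase. Its scaled coverage was 2207 and 1961 in Pcf11-13, 1723 and 1469 in Pcf11-DNL, and 1343 and 1943 in WT. Both Pcf11-13 libraries were above the 4 libraries of the other strains, the lower of them only just above WT replicate 2.

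CWP2 and CWP1, a tandem pair of wall mannoprotein genes on chromosome XI (YKL096W-A, 259253 to 259531, and YKL096W, 261132 to 261851), differed in level in each library. CWP2 had 1340.2 and 1266 in Pcf11-13, 1295 and 1111 in Pcf11-DNL, and 1244 and 1600.4 in WT. CWP1 had 397 and 319 in Pcf11-13, 325 and 287 in Pcf11-DNL, and 282 and 363 in WT. For CWP2 the highest library was WT replicate 2, for CWP1 the lowest was WT replicate 1, and the strains overlapped for both genes. CRH1 (YGR189C, chromosome VII, 876669 to 878192) encodes a transglycosylase that joins chitin to glucan. It had 535 and 480.05 in Pcf11-13, 438 and 369.7 in Pcf11-DNL, and 375 and 469 in WT. PST1 (YDR055W, chromosome IV, 563527 to 564861) encodes a GPI protein known to be secreted by protoplasts that rebuild a wall. It had 348 and 307 in Pcf11-13, 251 and 241 in Pcf11-DNL, and 238 and 259.7 in WT. Pcf11-13 was above the other strains in both libraries for CRH1 and for PST1.

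The Pir genes lie in 2 pairs. HSP150 (also PIR2, YJL159W, chromosome X, 120449 to 121690), named as a heat shock protein secreted into the medium, converges on CIS3 (also PIR4, YJL158C, chromosome X, 122265 to 122948) across 574 bp. HSP150 had a scaled coverage of 2872 and 2280.2 in Pcf11-13, 2069 and 1682 in Pcf11-DNL, and 1555 and 2689.7 in WT. CIS3 had 859 and 779 in Pcf11-13, 797 and 643 in Pcf11-DNL, and 715 and 919 in WT. In both genes WT replicate 2 exceeded WT replicate 1 by more than any pair of mutant replicates differed. PIR1 (YKL164C, chromosome XI, 141794 to 142819) and PIR3 (YKL163W, chromosome XI, 144401 to 145378) are transcribed away from each other across 1581 bp. PIR1 had 839.9 and 688 in Pcf11-13, 663 and 509 in Pcf11-DNL, and 517 and 920.4 in WT. Both Pcf11-DNL libraries were below both Pcf11-13 libraries, and each mutant overlapped WT. PIR3 was the lowest of the 10, with 218 and 164 in Pcf11-13, 144 and 185 in Pcf11-DNL, and 159.9 and 129 in WT. It differed from its partner in that WT replicate 1 was the higher WT library, and both Pcf11-13 libraries were above both WT libraries.

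**Figure D1:**
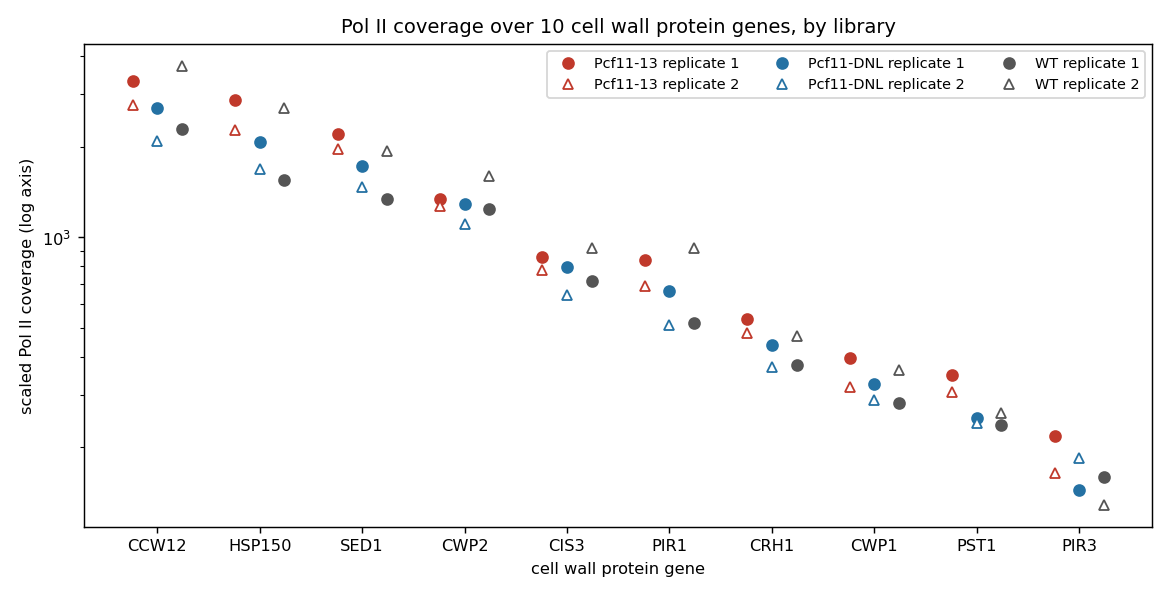
Scaled Pol II coverage (vertical log axis) of the 10 cell wall protein genes in each of the 6 Pol II libraries, with Pcf11-13 in red, Pcf11-DNL in blue and WT in grey, filled circles for replicate 1 and open triangles for replicate 2. Genes run from CCW12, at 2094 to 3714, to PIR3, at 129 to 218, and for most genes the WT libraries are farther apart than the mutant ones.

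The order of the 10 genes by scaled coverage was CCW12, HSP150, SED1, CWP2, CIS3, PIR1, CRH1, CWP1, PST1 and PIR3. Each gene exceeded the next in 6 of 6 libraries except CIS3, which exceeded PIR1 in 5 of 6, with a mean difference of 0.21 on the log2 scale and an SD of 0.18. The levels compared are mean coverage per gene, and their dependence on gene length was not tested. HSP150 ranked 4, 17 and 18 among 6641 genes in Pcf11-13, Pcf11-DNL and WT, and SED1 ranked 24, 37 and 47. At the low end, PIR3 was 1.496-fold above the median gene in Pcf11-13, 1.32-fold in Pcf11-DNL and 1.14-fold in WT, above 74.6%, 69.4% and 59.6% of genes. PST1 was above 90.4%, 85.4% and 85.7% of genes in the same order. Input coverage of the 10 genes was between 0.879 and 1.10 of the median gene in all 6 input libraries. Multiplied by its annotated length of 279 bp the value of CWP2 was a whole number in all 12 libraries, within 6e-04 per base. This did not hold for CCW12 at 402 bp, CIS3 at 684 bp or CWP1 at 720 bp, so their values may cover a stretch other than the annotated gene, and the other 6 genes are too long for the check.

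In Pcf11-13 cells, set against WT, 9 of the 10 genes had a higher mean log2 coverage, with PIR3 and PST1 at the top, and no change of a single gene passed the test. The call used limma's moderated test fitted to all 6642 genes kept, with Benjamini-Hochberg adjusted p under 0.05, and called 0 of the 10 genes, where 1.13% of all genes were called in either direction. A change above 0 was found in 46% of all genes. The median change of the 10 genes was 0.21 on the log2 scale, beside -0.02 for all genes. Genes of similar coverage were not compared apart, here or in the other comparisons of strains. At unadjusted p under 0.05 there were 2 of the 10 genes, PST1 and PIR3, where 12.6% of all genes had such a p. Both Pcf11-13 libraries were above both WT libraries for 4 of the 10 (PST1, PIR3, CRH1 and SED1), which was so for 19.6% of all genes, and below them for 0 of the 10, against 20.5%. A higher share of cells with Pol II on a gene and more Pol II per cell cannot be told apart in these bulk samples.

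PST1 averaged 328 ± 29.6 in Pcf11-13 and 249 ± 15.6 in WT (SD of scaled coverage, n = 2 each). Its log2 change was 0.39 (SE 0.10, 95% interval 0.17 to 0.62), or 1.31-fold, with limma adjusted p = 0.11. Ordered by p, it was number 215 of the 6642 genes. PIR3 averaged 191 ± 38.0 in Pcf11-13 and 144 ± 21.9 in WT, a log2 change of 0.40 (SE 0.16, interval 0.02 to 0.77), or 1.32-fold, with limma adjusted p = 0.37. The change of PIR3 was above that of 96.9% of all genes. CRH1 differed by 0.27 (SE 0.15, limma adjusted p = 0.52).

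For the 3 genes of highest Pol II coverage the intervals included 0. SED1 averaged 2084 ± 174 in Pcf11-13 and 1643 ± 424 in WT, a log2 change of 0.37 (SE 0.34, limma adjusted p = 0.72). HSP150 differed by 0.32 (SE 0.43, limma adjusted p = 0.81) and CCW12 by 0.05 (SE 0.51, limma adjusted p = 0.98). The interval for CCW12 ran from -1.12 to 1.22, so a change of 2-fold either way was not detectable. PIR1 and CWP1 differed by 0.14 and 0.15, CIS3 by 0.01, and CWP2, the lone gene with a lower mean in Pcf11-13, by -0.12 (limma adjusted p from 0.74 to 0.99).

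**Figure D2:**
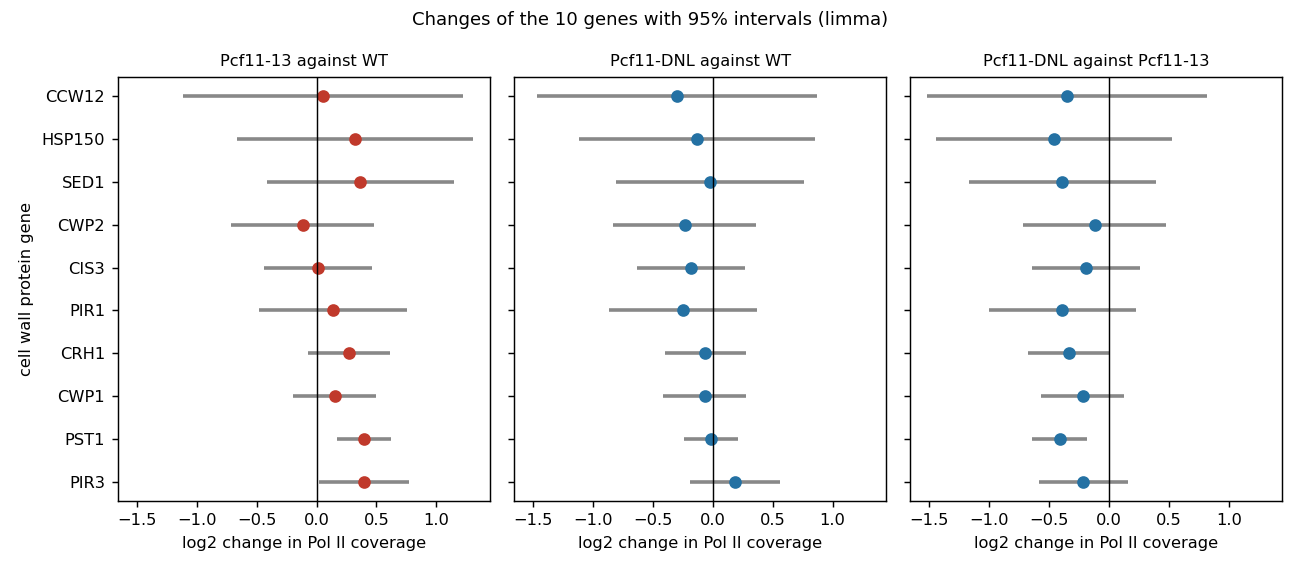
Log2 change in Pol II coverage (horizontal axis) of each of the 10 genes in the 3 comparisons, as points with 95% intervals from limma. In Pcf11-13 against WT 9 points are above 0 and the intervals of PST1 and PIR3 leave 0 out, in Pcf11-DNL against WT all 10 intervals include 0, and in Pcf11-DNL against Pcf11-13 all 10 points are below 0 and that of PST1 leaves 0 out.

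The result for these genes turned on which WT library was used. Without WT replicate 2, PST1 (0.46, adjusted p = 0.0013), CRH1 (0.43, adjusted p = 0.023), PIR1 (0.55, adjusted p = 0.022) and CWP1 (0.33, adjusted p = 0.042) were called higher in Pcf11-13 by limma, as were 10.7% of all genes. The remaining WT library was then one of narrow range, and the median change of the 10 genes was 0.42. Without WT replicate 1, limma called PIR3 alone (0.55, adjusted p = 1.0e-06), with 4.67% of all genes called higher, and the median was -0.05. Without both libraries of narrow range, PST1 (0.34, limma adjusted p = 0.032) and PIR3 (0.56, limma adjusted p = 0.011) were called, in a fit that called 6.66% of all genes higher, and the median was -0.04. In that fit the 6 genes with a lower mean in Pcf11-13 than in WT were CCW12, CWP2, PIR1, CIS3, HSP150 and CWP1, at -0.29, -0.29, -0.27, -0.16, -0.06 and -0.02, none of them called. Each of these fits leaves 1 WT library, which is assumed to vary like the strains that still have 2. In the fit without both libraries of narrow range Pcf11-DNL also has 1 library, so that the spread comes from the 2 Pcf11-13 libraries alone. Leaving out either Pcf11-13 library gave 0 called of the 10, with 0.136% and 0.12% of all genes called.

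**Figure D3:**
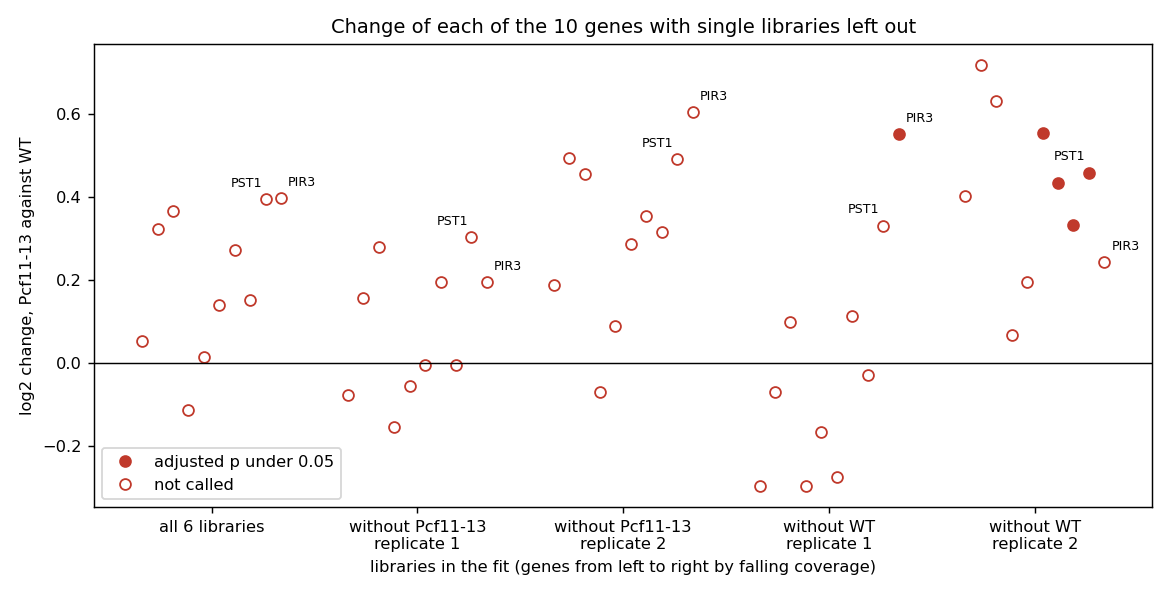
Log2 change in Pcf11-13 against WT (vertical axis) of each of the 10 genes in the fit of all 6 libraries and in fits without 1 library, with genes in falling order of coverage and filled points for adjusted p under 0.05. PST1, PIR3, CRH1 and SED1 are above 0 in all 5 fits shown. The genes of highest coverage are above 0 without WT replicate 2 and mostly below 0 without WT replicate 1.

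The 2 WT libraries differed over most of these genes. In WT, replicate 2 was above replicate 1 for 9 of the 10 genes, by a median of 0.36 on the log2 scale, and by as much as 0.83 for PIR1, 0.79 for HSP150 and 0.70 for CCW12. PST1 differed by 0.13, and PIR3 ran the other way, by -0.31. The 665 genes of highest coverage differed by a median of 0.34 between the same libraries, and all genes by 0.01. In Pcf11-DNL, replicate 2 was below replicate 1 for 9 of the 10 genes, with a median of -0.24 for the 10 and -0.23 for the 665 genes of highest coverage, and PIR3 again ran the other way, at 0.36. In Pcf11-13, replicate 2 was below replicate 1 for all 10 genes, from -0.41 for PIR3 to -0.08 for CWP2, with a median of -0.22, where the 665 genes had -0.05.

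**Figure D4:**
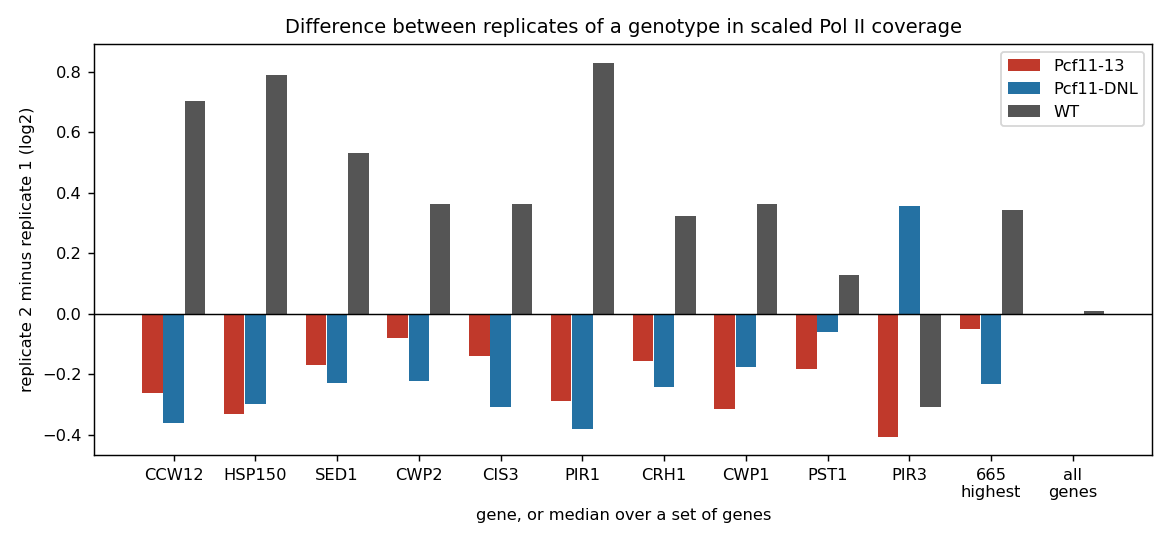
Replicate 2 minus replicate 1 in log2 scaled Pol II coverage (vertical axis) within Pcf11-13 (red), Pcf11-DNL (blue) and WT (grey), for each of the 10 genes and for the median of the 665 genes of highest coverage and of all genes. WT bars point up and Pcf11-DNL bars down for every gene but PIR3, and the bars of the 665 genes point the same way in these strains, at 0.34 and -0.23.

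In Pcf11-DNL cells, set against WT, no difference of the 10 genes was detectable. limma called 0 of the 10, where 0.0151% of all genes were called, and 0 of the 10 had an unadjusted p under 0.05, where 1.61% of all genes did. Without Pcf11-DNL replicate 2, 6 of the 10 had a higher mean in Pcf11-DNL, with a median change of 0.0083, and limma again called 0 of them and 0.0452% of all genes. Without both libraries of narrow range the median was -0.19, and limma called 0 of the 10 and 1.58% of all genes. The libraries of the 2 strains overlapped for all 10 genes, where 9.09% of all genes were above and 7.57% below in both. Changes were between -0.30 for CCW12 and 0.18 for PIR3, with a median of -0.10 beside 0.00 for all genes, and PIR3 was the lone gene with a higher mean in Pcf11-DNL, where 49.7% of all genes had one. PST1, at 246 ± 7.26 in Pcf11-DNL and 249 ± 15.6 in WT (SD, n = 2 each), had the narrowest interval, -0.24 to 0.21 around a change of -0.02, which leaves out a change as large as the 0.39 of Pcf11-13. For CCW12 the interval was -1.46 to 0.87. Without WT replicate 1, limma called PIR3 higher (0.36, adjusted p = 0.013) and PIR1 lower (-0.66, adjusted p = 0.019), with 2.79% of all genes called higher and 3.24% lower. The WT libraries are shared with the comparison of Pcf11-13.

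Between the mutants, all 10 genes had a lower mean in Pcf11-DNL than in Pcf11-13. Beside 0.00 for all genes, of which 51.2% were above 0, the median change was -0.34, with genes of similar coverage not compared apart. Without both libraries of narrow range it was -0.21, and without Pcf11-DNL replicate 2 also -0.21, in fits with 1 Pcf11-DNL library. With all libraries, 4 of 4 alpha-specific genes were lower in Pcf11-DNL, by a median of -0.27. The a-specific genes were higher, 6 of 6, by a median of 0.42. limma called 0 of the 10, where 0.166% of all genes were called. The range was -0.46 for HSP150 to -0.12 for CWP2. Both Pcf11-DNL libraries were below both Pcf11-13 libraries for 6 of the 10 (CCW12, HSP150, SED1, PIR1, CRH1 and PST1), which was so for 26.7% of all genes. PST1 had 251 and 241 in Pcf11-DNL, against 348 and 307 in Pcf11-13. Its change was -0.41 (SE 0.10, interval -0.64 to -0.18), with limma adjusted p = 0.24, and it was the lone gene of the 10 with an unadjusted p under 0.05, where 11% of all genes had one. CRH1 followed at -0.33 (SE 0.15, limma adjusted p = 0.47). PST1 was called lower in Pcf11-DNL without both libraries of narrow range (-0.39, limma adjusted p = 0.023), where 4.26% of all genes were called lower. That fit has 1 Pcf11-DNL library. PST1 was not called without either Pcf11-13 library (-0.32 and -0.51, limma adjusted p = 0.98 and 0.69) or either Pcf11-DNL library (-0.44 and -0.39, limma adjusted p = 0.25 and 0.56). WT values do not enter this difference, so leaving out a WT library alters only the pooled error. limma then called PST1, with 7.48% of all genes called lower without WT replicate 1 and 7.39% without WT replicate 2.

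The input DNA of the 10 genes did not differ detectably. Input changes were between -0.06 and 0.04 in the 3 comparisons, and limma called 0 of the 10 in each, where 0.256%, 0% and 0.256% of all genes were called in Pcf11-13 against WT, Pcf11-DNL against WT and Pcf11-DNL against Pcf11-13. None of the 10 had an unadjusted input p under 0.05 in any comparison, where 5.78%, 3.49% and 5.71% of all genes had one in the same order. With the input of the same replicate subtracted on the log2 scale, limma again called 0 of the 10 in Pcf11-13 against WT, where 2.09% of all genes were called, with 2 of the 10 at an unadjusted p under 0.05, as 12.5% of all genes were. PST1 then changed by 0.40 (SE 0.11, limma adjusted p = 0.093) and PIR3 by 0.42 (SE 0.15, limma adjusted p = 0.24). In Pcf11-DNL against WT limma called 0 of the 10, where 0.0301% of all genes were called, with 0 of the 10 at an unadjusted p under 0.05, against 2.14% of all genes, and a median change of -0.11. In Pcf11-DNL against Pcf11-13 limma called 0 of the 10, where 0.196% of all genes were called, and the median change was -0.34. PST1 differed there by -0.43 (SE 0.11, limma adjusted p = 0.15) and CRH1 by -0.34 (SE 0.15, limma adjusted p = 0.44).

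Reads of closely spaced genes can overlap, and the libraries do not separate strands, so the nearest gene on each side was examined. Of 14 neighbours that are not among the 10 genes, 11 had a higher mean in Pcf11-13 than in WT, beside 46% of all genes. Their median change was 0.02, with a range of -0.12 to 0.38. EMC10, which ends 161 bp from the 3′ end of PST1 on the other strand, differed by 0.11 (limma adjusted p = 0.57), and CDC34, beyond the 5′ end of PST1, by 0.04. AHP1, whose 3′ end faces that of CCW12 across 385 bp, differed by 0.02. FAR1, upstream of CIS3 on the same strand, differed by 0.26 (limma adjusted p = 0.52). The lone neighbour called, where 1.13% of all genes were called, was RAD55, a recombination gene. It lies on the same strand upstream of SED1, with a gap of 1104 bp. It had 163 and 173 in Pcf11-13, 140.9 and 142 in Pcf11-DNL, and 129 and 127 in WT, a log2 change in Pcf11-13 of 0.38 (SE 0.07, limma adjusted p = 0.045). SHU2, whose 3′ end faces that of SED1 across 388 bp, differed by 0.19 (limma adjusted p = 0.55). The call of RAD55 was lost without either Pcf11-13 library (limma adjusted p = 0.31 and 0.36) and under 4 other settings, while its change was 0.35 to 0.43 with single libraries left out. In Pcf11-DNL against WT, 8 of the 14 neighbours had a higher mean and limma called 0, beside 49.7% and 0.0151% of all genes. Changes ran from -0.30 for YKL096C-B, which starts 30 bp from CWP2 on the other strand, to 0.23.

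Other genes of the wall were read from 3 lists. Of 44 genes for other wall and glucan-modifying proteins, 25 had a higher mean in Pcf11-13 than in WT, beside 46% of all genes. The median change was 0.02. limma called 1, where 1.13% of all genes were called, and 5 had an unadjusted p under 0.05, beside 12.6%. Both Pcf11-13 libraries were above both WT libraries for 5 of the 44 and below them for 5, beside 19.6% and 20.5% of all genes. The called gene was TIR4, a mannoprotein gene of the family known for expression in the cold and without oxygen. It had 139 and 129.999 in Pcf11-13, 103 and 109.7 in Pcf11-DNL, and 86.5 and 83.1 in WT, a log2 change of 0.66 (SE 0.07, limma adjusted p = 0.0049). The 3 strains did not overlap for TIR4, and its call was lost without either Pcf11-13 library (limma adjusted p = 0.12 and 0.057) or without limma's trend (adjusted p = 0.090), while its change was 0.61 to 0.71 with single libraries left out. The next smallest p values in the list were those of YPS3, a yapsin protease gene (0.37, limma adjusted p = 0.064), and TOS6 (-0.40, limma adjusted p = 0.16). The change of YPS3 was 0.31 without WT replicate 1 and 0.42 without WT replicate 2. That of TOS6 was -0.48 without WT replicate 1. Each of these fits leaves 1 WT library.

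A list of 31 genes of glucan and chitin synthesis also held protein mannosylation genes, such as MNN9, OCH1 and PMT1. Of the 31, 21 had a higher mean in Pcf11-13, beside 46% of all genes. limma called 0, where 1.13% of all genes were called, and 5 had an unadjusted p under 0.05, beside 12.6%. Both Pcf11-13 libraries were above both WT libraries for 12 of the 31 and below them for 2, beside 19.6% and 20.5% of all genes, and the median change was 0.08. GFA1, which makes the amino sugar precursor of chitin, had 302 and 297 in Pcf11-13, 253 and 228 in Pcf11-DNL, and 212 and 251 in WT, a log2 change of 0.37 (SE 0.11, limma adjusted p = 0.15). Its change was 0.25 without WT replicate 1 and 0.50 without WT replicate 2, in fits that leave 1 WT library. CHS3, a chitin synthase gene, differed by 0.26 (limma adjusted p = 0.23), by 0.18 without WT replicate 1 and by 0.34 without WT replicate 2. GSC2, a glucan synthase gene, differed by 0.17 (limma adjusted p = 0.35). Of 25 genes of cell wall integrity signalling, 14 had a higher mean in Pcf11-13, beside 46% of all genes, and 11 a lower one, down to -0.28. limma called 0, where 1.13% of all genes were called. An unadjusted p under 0.05 was found for 5, beside 12.6% of all genes, and the median change was 0.03. Both Pcf11-13 libraries were above both WT libraries for 4 of the 25 and below them for 4, beside 19.6% and 20.5% of all genes. SLT2, the MAP kinase gene, had 269 and 260.3 in Pcf11-13, 208 and 185 in Pcf11-DNL, and 175 and 217 in WT, a log2 change of 0.44 (SE 0.11, limma adjusted p = 0.12). The change of SLT2 was 0.28 without WT replicate 1 and 0.59 without WT replicate 2, in fits that leave 1 WT library. PTP2, a phosphatase gene that acts on this kinase, and KDX1, a gene for a related kinase, each differed by 0.26 (limma adjusted p = 0.20 and 0.22). Without WT replicate 1 they differed by 0.35 and 0.34, and without WT replicate 2 each was at 0.17 to 0.18. In Pcf11-DNL against WT limma called 0 genes of the 3 lists, where 0.0151% of all genes were called. The lists had 3, 0 and 0 genes at an unadjusted p under 0.05, beside 1.61% of all genes, and medians of -0.10, -0.02 and -0.01.

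**Figure D5:**
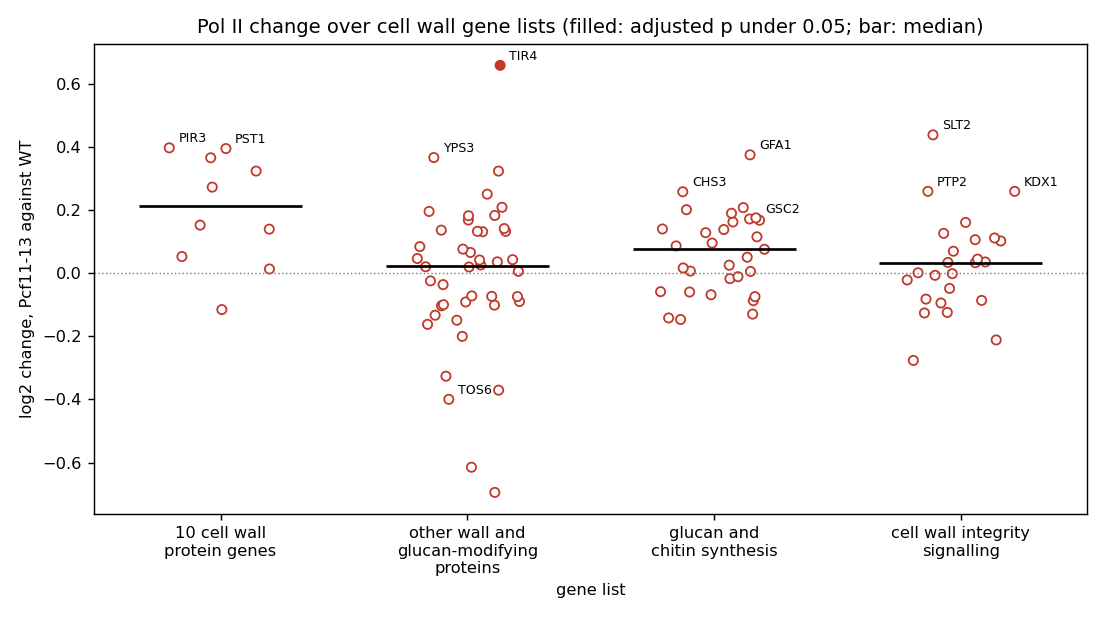
Log2 change in Pol II coverage in Pcf11-13 against WT (vertical axis) of the 10 cell wall protein genes and of the 3 lists of other wall genes, 1 point a gene, filled where the adjusted p was under 0.05, with a bar at each list's median. The medians are 0.21, 0.02, 0.08 and 0.03 from left to right, and TIR4, at 0.66, is the lone filled point.

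Over the 6 Pol II libraries the genes whose log2 coverage was most like the mean of the 10 were APS2 (Pearson r = 0.995), VMA13 (0.995) and YLR157W-D (0.992), as a description over libraries that share their scaling and range. Of 6632 other genes 468 had an r over 0.9. Among the 10 genes themselves r with that mean, of which each is a part, was 0.99 for HSP150, 0.98 for CWP1 and 0.97 for CRH1, against 0.81 for PST1, 0.72 for CWP2 and 0.11 for PIR3.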

How the data were processed

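Groups and replicate numbers came from the sample titles. The authors deposited read coverage, a signal per gene, for 6 Pol II and 6 input libraries, with no scaling to depth that the sources used here give. Per the submitters' processing notes the tools were deepTools 3.1.2, Trimmomatic 0.38 and BWA 0.7.17-r1188 and the build was sacCer3. Their order, and the way a gene's coverage was averaged, are not given in the sources used here. Coordinates come from a RefSeq gene table of the same assembly, which matched 5976 of 6650 genes and all 10 described.

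Coverage was divided by trimmed-mean factors (30 percent of log ratios and 5 percent of levels trimmed, no weights). Genes reaching a coverage of 10 in 2 or more libraries entered the tests: 6642 for Pol II, 6643 for input and 6641 for both. log2(scaled coverage + 1) of the 6 libraries of an assay was modelled in limma 3.58.1 (R 4.3.3), with genotype as the only term and the prior variance following the mean. p-values were adjusted by Benjamini-Hochberg over all genes kept, and the script was tested on simulated data. The labels call replicates biological without saying whether cultures were separate, so p-values measure only the spread between these samples, which may be technical. Replicate numbers were not used to pair the strains. Deviations of equal numbers had r of -0.09 (Pcf11-13 and WT), -0.89 (Pcf11-DNL and WT) and -0.07 (the mutants). At -0.89 opposite numbers varied together, among them the 2 libraries of narrow range. The check cannot show whether numbers mark a shared batch.

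The 10 genes and the lists were chosen with earlier results of these data known. All 10 are named, with the nearest gene on each side, the called genes of each list or, with fewer than 3, the 3 of smallest p, and the 3 genes most like the 10. Alternatives were other scalings, a pseudocount of 10, no filter, no trend, a replicate block, and leaving out libraries.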

Additional observations from a re-analysis of the deposited data

How the results depend on the processing

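The count of the 10 genes called was 0 in every comparison and stayed 0 under median-ratio, quantile and meiosis-gene scaling, a pseudocount of 10, no filter and no trend. For Pcf11-13 against WT it became 1 with library totals and 2 without both libraries of narrow range, and 0 to 4 with single libraries left out. For Pcf11-DNL against WT it was 0 to 2 with single libraries left out. For Pcf11-DNL against Pcf11-13 it was 1 with library totals, 1 without the libraries of narrow range and 0 to 1 with single libraries left out, the gene being PST1 each time. With input subtracted, Pcf11-13 against WT had 1 with library totals, 2 without the libraries of narrow range and 0 to 1 with single libraries left out, and Pcf11-DNL against WT had 1 (PIR1) without the libraries of narrow range. The replicate block left the Pol II counts of the 10 at 0 and called 107, 3 and 20 genes in all, beside 75, 1 and 11 without it. With input subtracted the block called 1 of the 10 in Pcf11-13 against WT, PIR3 (limma adjusted p = 0.037), where 3.25% of all genes were called. Library totals, with input subtracted, called PST1 lower in Pcf11-DNL than in Pcf11-13 (limma adjusted p = 0.017), where 2.05% of all genes were called. Crossed numbers in Pcf11-DNL and WT, tried after seeing the data, called 20 genes and 0 of the 10.

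In all genes, Pcf11-13 against WT gave 292 calls with library totals, 278 with quantile scaling, 32 with meiosis genes, 32 without the filter, 10 without the trend, 615 without the libraries of narrow range and 8 to 1215 with single libraries left out. Under meiosis-gene scaling all genes had a median change of 0.20 and the 10 genes one of 0.42. The median log2 ratio of Pol II to input of the 10 genes in WT was 2.64 above the median gene and 3.77 above the meiosis genes.

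Directions turned as follows, and the cause was not tested. In Pcf11-13 against WT, CWP2 was 0.10 with meiosis genes. Without the libraries of narrow range CCW12 was -0.29, PIR1 -0.27, CIS3 -0.16, HSP150 -0.063, CWP1 -0.020 and the median of the 10 -0.041. With single libraries left out CCW12 was -0.30 to 0.40, PIR1 -0.28 to 0.55, CIS3 -0.17 to 0.19, HSP150 -0.072 to 0.72, CWP1 -0.029 to 0.33, CWP2 -0.30 to 0.066 and the median -0.051 to 0.42. In Pcf11-DNL against WT, PST1 was 0.027 and SED1 0.022 with library totals, and HSP150 was 0.12, PST1 0.011 and SED1 0.12 with quantile scaling. With single libraries left out CCW12 was -0.65 to 0.055, CIS3 -0.36 to 0.00095, CRH1 -0.22 to 0.10, CWP1 -0.25 to 0.12, HSP150 -0.53 to 0.26, PIR1 -0.66 to 0.17, PST1 -0.080 to 0.048, SED1 -0.29 to 0.24 and the median -0.32 to 0.078. PST1 and PIR3 kept a higher mean in Pcf11-13 than in WT in every fit, at 0.28 to 0.61 and 0.19 to 0.61. With single libraries left out CRH1 and SED1 also stayed above 0 in this comparison, at 0.11 to 0.43 and 0.099 to 0.63. Read numbers are unknown, and 2 libraries a strain limit the precision.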
